A study of Homo sapiens with 6 samples.

Results

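The genes described here are TXNIP, the alpha-arrestins ARRDC1, ARRDC2, ARRDC3 and ARRDC4, and the glucose-sensing transcription factors MLXIP (MondoA), MLXIPL (ChREBP) and their partner MLX. They were taken by gene symbol from the deposited read count table, and all 8 were found among its 20610 genes. The samples are 6 libraries of polyadenylated RNA from HT1080, an established line of human fibrosarcoma cells. In 3 libraries the cells carried a CRISPR-Cas9 knockout (KO) of PGK1, the phosphoglycerate kinase of lower glycolysis, and in the other 3 they were wild type (WT) for PGK1. Both groups are the same cell line and carry the same batch label. The labels name no further treatment, culture time or glucose level. Whether KO is 1 clone, and whether the libraries of a group are separate cultures, is not given in the sources used here. A p-value therefore reflects just the variation among these libraries, possibly technical, and PGK1 loss and differences between clones or cultures cannot be told apart.

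As background, MondoA and ChREBP are basic helix-loop-helix proteins that are held in the cytoplasm when sugar phosphates are scarce. When glucose 6-phosphate accumulates they enter the nucleus, pair with MLX and bind carbohydrate response elements, which are tandem E-box-like repeats. TXNIP and ARRDC4 are their best known targets. TXNIP binds thioredoxin and, like ARRDC4, lowers glucose uptake by promoting removal of glucose transporters from the cell surface. The alpha-arrestins as a family act as adaptors that bring NEDD4-type ubiquitin ligases to membrane proteins.

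The sequences before the starts of TXNIP and ARRDC4 are shown because both genes are textbook targets of one factor pair and moved in opposite directions here. Each is the stretch of 250 bases that ends just before the upstream-most annotated start in RefSeq (build GRCh38.p14), read 5′ to 3′ on the gene's strand, from chr1:145996580-145996829 (minus strand) for TXNIP and chr15:97960453-97960702 (plus strand) for ARRDC4. Capitals mark CCAAT (or ATTGG, its reverse complement) in both genes, the tandem repeat in TXNIP and the E-box CACGTG in ARRDC4.
TXNIP: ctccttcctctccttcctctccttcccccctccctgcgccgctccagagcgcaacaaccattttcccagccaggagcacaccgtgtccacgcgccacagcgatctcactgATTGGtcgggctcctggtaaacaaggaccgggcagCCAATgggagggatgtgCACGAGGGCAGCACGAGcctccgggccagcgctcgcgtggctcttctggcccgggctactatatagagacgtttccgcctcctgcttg
ARRDC4: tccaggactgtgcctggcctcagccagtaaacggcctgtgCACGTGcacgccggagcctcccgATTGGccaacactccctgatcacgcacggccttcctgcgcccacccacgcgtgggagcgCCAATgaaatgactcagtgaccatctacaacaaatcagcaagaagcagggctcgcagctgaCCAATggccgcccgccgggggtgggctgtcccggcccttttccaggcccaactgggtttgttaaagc

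The TXNIP stretch held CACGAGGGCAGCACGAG at positions -88 to -72 from the start, which matches the motif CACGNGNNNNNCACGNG, a repeat of CACGNG with a spacer of 5 bases. The motif was written with the TXNIP sequence known and was searched on both strands. It was found in 16 of 35116 windows of this length (0.0456%), and among the 8 genes in TXNIP alone. The ARRDC4 stretch held the E-box CACGTG at positions -210 to -205, a motif found in 6.34% of all windows, and the MLX stretch held it at positions -50 to -45. CCAAT, on either strand, occurred at 2 places in the TXNIP stretch, where 9.53% of windows have 2 or more. It occurred at 3 places in the ARRDC4 stretch, where 2.93% of windows have 3 or more. Unmarked matches to CACGNG, on either strand, lay at -163 to -158 and -55 to -50 in the TXNIP stretch. In the ARRDC4 stretch they lay at -142 to -137 and -140 to -135. At least 1 match to CACGNG was found in 26.7% of all windows, and 3 or more in 2.92%. In these shares CACGTG, which reads the same on both strands, counts once per strand. A match says only that the letters are present.

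**Figure D1:**
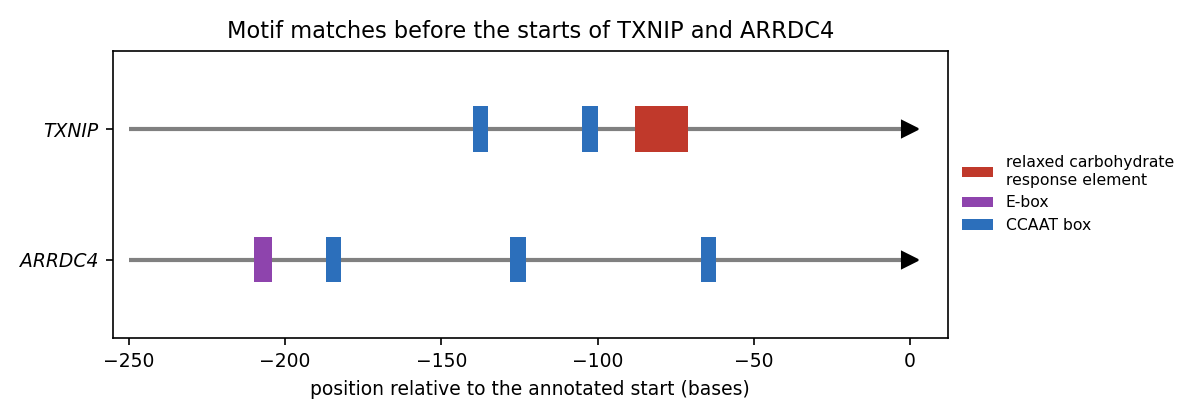
Positions of motif matches in the 250 bases before the annotated starts of TXNIP and ARRDC4, in bases from the start (arrowhead). TXNIP has the tandem repeat, a motif written from its own sequence, at -88 to -72 with a CCAAT box just upstream at -105 to -101. ARRDC4 has CACGTG at -210 to -205 and 3 CCAAT boxes. Other matches to CACGNG in both stretches are not drawn.

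Library totals were 30175903 to 43890830 counts in KO and 39150295 to 47047186 counts in WT. PGK1 itself averaged 155 ± 8.52 library-scaled counts (CPM) in KO and 1427 ± 19.9 CPM in WT (SD, n = 3 each). CPM here is scaled with the trimmed mean of M-values (TMM), and counts were tested with edgeR's quasi-likelihood test with Benjamini-Hochberg adjustment over all 13249 genes tested. Scaling by library size alone raised the log2 fold change of the median gene by 0.22, and changes below are relative to TMM. The summed level of 6 mesenchymal markers (VIM, FN1, CD44, NT5E, ENG and S100A4) was 3517 to 4160 CPM in KO and 13002 to 13533 CPM in WT. NT5E and S100A4 were at or below 2.09 CPM in every library, so these 2 were nearly absent from both groups. Epithelial markers summed to 4.19 to 5.07 CPM in KO and 1.42 to 2.53 CPM in WT, with EPCAM at 0 throughout. ESRP1 (2.46 to 2.82 CPM in KO, at most 0.110 CPM in WT) and CDH1 were higher in KO, whereas CLDN4 was 0.603 to 1.32 CPM in KO and 1.33 to 2.37 CPM in WT. Blood markers stayed at or below 0.438 CPM in sum, and endothelial markers summed to 2.17 to 3.28 CPM in KO and 10.12 to 12.04 CPM in WT. PECAM1 made up most of the endothelial sum, while VWF was 0.535 to 1.11 CPM in KO and 0.385 to 0.665 CPM in WT. The part of these shifts in the results below was not tested, and in bulk RNA fewer cells of a type and less RNA per cell cannot be told apart.

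The 8 genes did not move together. In KO cells TXNIP, ARRDC3 and MLX fell, ARRDC4, ARRDC2 and MLXIP rose, and ARRDC1 and MLXIPL did not pass the test. All 8 were tested, and 6 were called at an adjusted p under 0.05 (edgeR), beside 76.4% of all tested genes. The 3 higher calls stand beside 40.0% of tested genes called higher in KO, and the 3 lower calls beside 36.3% called lower. A share of 6 in 8 is thus close to the background. The CPM of the groups did not overlap for 7 of the 8, beside 79.2% of all tested genes. MLXIPL is among the 7 only by 0.251 CPM in its highest KO library against 0.252 CPM in its lowest WT library, and has few counts. With library size alone 7 were called, ARRDC1 being the added one, beside 78.4% of all tested genes, of which 49.9% were called higher and 28.5% lower.

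TXNIP, the most abundant of the 8, fell to 48.6% of its WT level. It had 192, 190 and 181 CPM in the KO libraries, against 384, 387 and 389 CPM in the WT libraries. The groups lay far apart and the 3 libraries of each group were close together. The log2 fold change was -1.04 (SE 0.049) with an adjusted p of 6.73e-11 in edgeR's test, lower in 3 of 3 KO libraries, and -0.82 with library size alone. TXNIP lies on chromosome 1 at 145992435 to 145996579 (minus strand, GRCh38).

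ARRDC4, the other established MondoA target, went the opposite way. It had 4.45, 6.14 and 4.19 CPM in the KO libraries, against 1.26, 1.54 and 1.82 CPM in the WT libraries. Every KO library was above every WT library, although the gene remained low, with 133 to 224 counts per KO library and 48 to 67 per WT library. It rose 3.20-fold (log2 1.68, SE 0.224, adjusted p = 7.23e-06, edgeR). On the log2(FPKM + 1) scale, which understates changes of low genes, the difference was 0.77. It lies on chromosome 15 at 97960703 to 97973833 (plus strand).

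Because both genes were read in the same libraries, their ratio does not depend on the scaling between libraries. On the per-length scale of the authors' FPKM values, TXNIP was 61.3, 44.0 and 61.3 times ARRDC4 in the KO libraries and 432, 358 and 304 times ARRDC4 in the WT libraries. The log2 ratio of ARRDC4 to TXNIP averaged -5.78 ± 0.28 in KO and -8.49 ± 0.25 in WT (SD, n = 3 each), a difference of 2.72. The groups did not overlap, and the exact 2-sided permutation test gave p = 0.1, the smallest value that 3 against 3 allows.

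**Figure D2:**
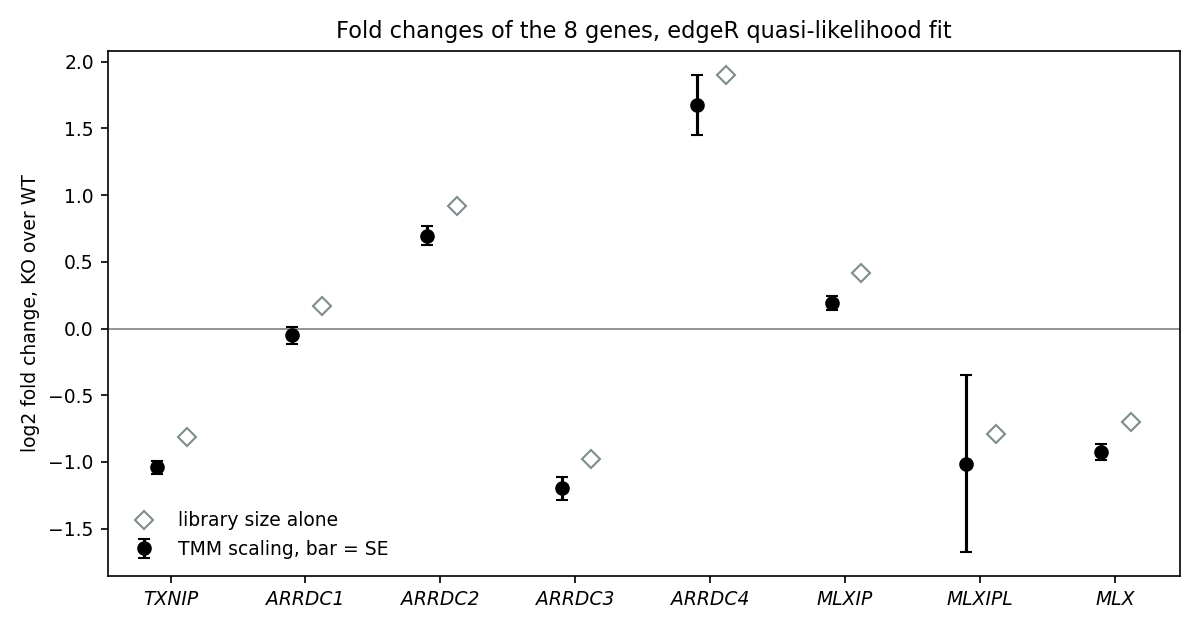
Log2 fold change, KO over WT, of each gene in the edgeR fit with TMM scaling (filled circles, bars are SE) and with library size alone (open diamonds). TXNIP, ARRDC3 and MLX lie below 0 and ARRDC2, ARRDC4 and MLXIP above 0 under both scalings, while ARRDC1 changes sign between them.

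ARRDC3, an adaptor known for the beta2-adrenergic receptor and integrin beta4, fell like TXNIP. It had 15.3, 15.5 and 17.4 CPM in the KO libraries, against 33.3, 39.3 and 38.1 CPM in the WT libraries. The lowest WT library was well above the highest KO library. The log2 fold change was -1.20 (SE 0.087) with an adjusted p of 8.19e-09 in edgeR's test, which leaves 43.6% of the WT level. In GENCODE 29 the span of the gene, introns included, overlaps that of the lincRNA ARRDC3-AS1 on the opposite strand by 3011 bases. Whether exons overlap was not examined. Without a known strand setting, reads in the shared span could come from either gene.

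ARRDC2, a close relative of ARRDC3, rose. It had 34.6, 33.1 and 33.6 CPM in the KO libraries, against 21.6, 20.04 and 20.8 CPM in the WT libraries. The values within each group spanned less than 2 CPM, and the groups did not overlap. The rise was 1.62-fold (log2 0.70, SE 0.072, adjusted p = 4.57e-07, edgeR).

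ARRDC1, known for the budding of microvesicles at the plasma membrane, had 55.1, 52.9 and 48.8 CPM in the KO libraries, against 56.8, 54.7 and 51.3 CPM in the WT libraries. The groups overlapped. The log2 fold change was -0.05 (SE 0.067) and did not pass edgeR's test (adjusted p = 0.491). Scaled by library size it was 0.17 with an adjusted p of 0.0400. Its direction therefore rests on the scaling. In GENCODE 29 the span of the processed transcript AL590627.2 overlaps that of ARRDC1 on the same strand by 9617 bases. Reads in the shared span cannot be told apart by strand, and whether exons overlap was not examined. The remaining alpha-arrestin, ARRDC5, had 1 count in 1 KO library and 0 counts in the WT libraries, and was not tested.

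Across the alpha-arrestins the make-up of the transcript pool shifted away from TXNIP. Summed over TXNIP and ARRDC1 to ARRDC5, the family had 114 ± 6.04 FPKM in KO and 161 ± 1.16 FPKM in WT (SD, n = 3 each). TXNIP made up 62.2%, 62.6% and 62.3% of this sum in the KO libraries, against 77.2%, 77.3% and 78.0% in the WT libraries. The shares within a group differed by less than 1 percentage point while the groups were 15.2 points apart (exact 2-sided permutation p = 0.1, the smallest possible). ARRDC2 took 12.8 ± 0.40% in KO and 4.77 ± 0.20% in WT, and ARRDC1 20.2 ± 0.61% in KO and 12.7 ± 0.67% in WT. A share also depends on the family sum, which was lower in KO, and ARRDC1 itself did not pass the test above. ARRDC3 took 3.52 ± 0.37% in KO and 4.86 ± 0.40% in WT. ARRDC4 stayed a minor member, at 1.15 ± 0.23% in KO and 0.217 ± 0.039% in WT.

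**Figure D3:**
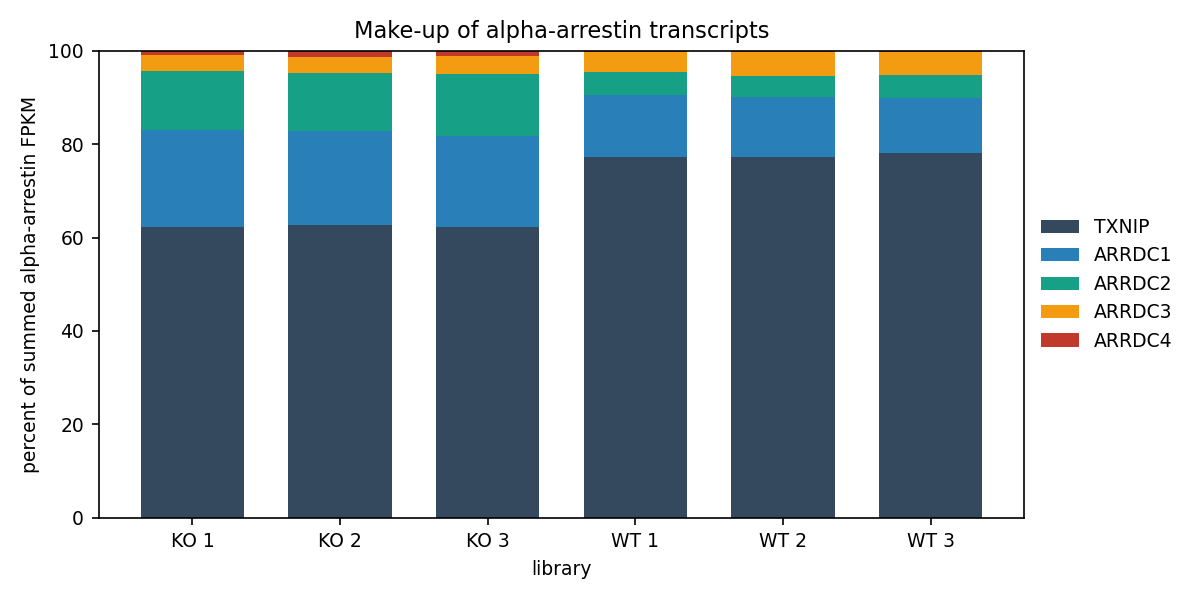
Share of each alpha-arrestin in the summed FPKM of the family, in percent, for each library. TXNIP fills about the same share within a group and less in the 3 KO libraries (62.2% to 62.6%) than in the 3 WT libraries (77.2% to 78.0%). ARRDC5, at most 0.0306% of the sum, is not drawn.

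Among the transcription factors, MLX fell and MLXIP rose slightly. MLX, the partner that both Mondo factors need to bind DNA, had 44.0, 46.5 and 45.1 CPM in the KO libraries, against 86.8, 82.6 and 88.0 CPM in the WT libraries. The KO level was 52.7% of WT with no overlap (log2 -0.93, SE 0.058, adjusted p = 1.55e-09, edgeR). MLX overlaps PSMC3IP on the opposite strand by 925 bases, and the strand setting of the counting is not given in the sources used here. PSMC3IP had 131 to 336 counts per library, against 1433 to 3605 for MLX.

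MLXIP, which encodes MondoA, had 109, 114 and 108 CPM in the KO libraries, against 99.3, 96.5 and 93.4 CPM in the WT libraries. The groups were separate but near each other. The rise of 1.14-fold (log2 0.19, SE 0.052, adjusted p = 0.00410, edgeR) is smaller than the shift of 0.22 between the 2 scalings, and with library size alone it was 0.41.

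MLXIPL, which encodes ChREBP, the factor of liver and fat, was nearly absent. It had 12, 3 and 1 counts in the KO libraries, against 11, 11 and 10 counts in the WT libraries. The KO libraries did not agree among themselves, and the highest of them, at 0.251 CPM, was just under the lowest WT library, at 0.252 CPM. The gene reached the level asked by the filter on low counts (0.249 unscaled CPM in 3 libraries) only in KO library 1, WT library 1 and WT library 3. Its log2 fold change was -1.01 (SE 0.661) and did not pass edgeR's test (adjusted p = 0.176). MLXIP made up 99.8 ± 0.23% of the summed FPKM of the pair in KO and 99.4 ± 0.039% in WT. This share is the complement of the few MLXIPL counts, so no difference is read from it.

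The balance between MLX and MLXIP also differed. MLX had 1.13, 1.15 and 1.18 times the FPKM of MLXIP in the KO libraries, against 2.45, 2.40 and 2.64 times in the WT libraries. The ratio, looked at after the values of both genes were known, was not tested.

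Ordered by FPKM, TXNIP stood first in both groups, with 70.8 ± 3.83 in KO and 125 ± 1.42 in WT. In KO it was followed by ARRDC1 (22.9 ± 1.86 FPKM), MLX (20.1 ± 0.78), MLXIP (17.5 ± 0.82), ARRDC2 (14.5 ± 0.48), ARRDC3 (3.98 ± 0.19), ARRDC4 (1.31 ± 0.30) and MLXIPL (0.0418 ± 0.0397). In WT the order was MLX (32.8 ± 1.07 FPKM), ARRDC1 (20.4 ± 0.97), MLXIP (13.1 ± 0.35), ARRDC3 (7.83 ± 0.71), ARRDC2 (7.68 ± 0.27), ARRDC4 (0.350 ± 0.064) and MLXIPL (0.0796 ± 0.0052). Neighbours whose libraries overlapped were ARRDC1 and MLX in KO, and ARRDC3 and ARRDC2 in WT. FPKM values are relative to library size alone, so a fold between groups read from them is 0.22 higher on the log2 scale than the tests above.

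**Figure D4:**
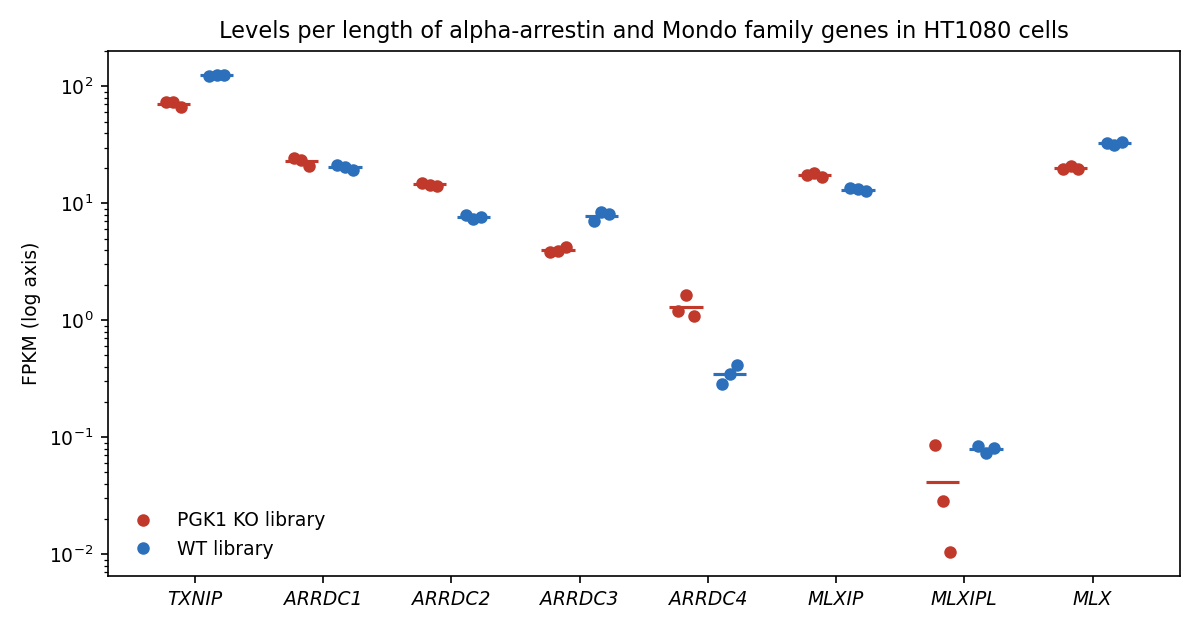
FPKM (log axis) of each gene in each library, with KO left of WT and a line at the mean of 3 libraries. TXNIP is highest in both groups, ARRDC4 lies between 1.08 and 1.66 FPKM in KO and between 0.286 and 0.415 FPKM in WT, and MLXIPL is at or below 0.0864 FPKM in every library.

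MLX also pairs with MXD1, MXD4 and MNT, repressors of the MAX network. MXD1 rose to 75.3 ± 8.23 CPM in KO, against 32.9 ± 2.35 CPM in WT (SD, n = 3 each). MXD4 fell to 36.5 ± 3.15 CPM in KO, against 47.5 ± 1.34 CPM in WT, and MNT fell to 40.8 ± 3.66 CPM in KO, against 62.4 ± 1.86 CPM in WT. In the rest of the MAX network 4 of 6 tested genes rose and 2 fell (median log2 0.67), and with library size alone 4 rose and 1 fell. Of all tested genes, 40.0% were called higher and 36.3% lower, and 49.9% and 28.5% with library size alone. MAX, the common partner, had 85.3 ± 2.46 CPM in KO and 46.6 ± 2.12 CPM in WT. MGA had 87.3 ± 4.07 CPM in KO and 39.1 ± 2.42 CPM in WT, and MYC 222 ± 8.65 CPM in KO and 160 ± 8.72 CPM in WT. MXI1, a MAX-binding repressor, fell to 60.6 ± 3.55 CPM in KO, against 166 ± 4.75 CPM in WT.

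Other genes reported as MondoA or ChREBP targets, many in liver, moved both ways. Of 16 such genes 12 were tested, of which 5 rose and 7 fell, beside 40.0% of all tested genes called higher and 36.3% called lower. One of the rises was GPD1, named here after its values were seen, with 0.827 ± 0.285 CPM in KO and 0.0966 ± 0.0795 CPM in WT (SD, n = 3 each). It passed the filter on low counts only through the KO libraries, so its call is no support for a rise of the list. KLF10, a zinc-finger repressor, rose to 72.3 ± 2.78 CPM in KO, against 10.3 ± 0.58 CPM in WT (SD, n = 3 each). The other rises were HK2, PFKFB3 and ACACA. HK2 had 147 ± 3.96 CPM in KO and 110 ± 2.94 CPM in WT. PFKFB3 had 109 ± 1.13 CPM in KO and 78.3 ± 2.03 CPM in WT. ACACA had 132 ± 8.66 CPM in KO and 116 ± 3.02 CPM in WT. LDHA, lactate dehydrogenase A, fell to 511 ± 52.1 CPM in KO, against 1781 ± 10.05 CPM in WT. The lipogenic genes FASN (923 ± 44.7 CPM in KO and 2735 ± 150 CPM in WT) and SCD (741 ± 79.9 CPM in KO and 3743 ± 11.6 CPM in WT) fell too, and both are also targets of the sterol factor SREBP.

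Glucose 6-phosphate is the signal the Mondo factors read. Of 10 tested genes that bring in glucose and make or use glucose 6-phosphate, 7 fell in KO, 2 rose and 1 was not called, beside 36.3% of all tested genes called lower and 40.0% called higher. With library size alone 3 rose and 6 fell, beside 49.9% and 28.5%. The median log2 fold change was -0.87, against 0.05 over all tested genes. SLC2A1 (GLUT1), a transporter whose surface level TXNIP lowers, fell to 150 ± 10.01 CPM in KO, against 446 ± 9.08 CPM in WT. SLC2A3 (GLUT3) had 159 ± 9.24 CPM in KO and 401 ± 3.20 CPM in WT. HK1, a hexokinase of most tissues, had 386 ± 28.0 CPM in KO and 793 ± 15.3 CPM in WT, and PGM1, which interconverts glucose phosphates, 30.1 ± 2.67 CPM in KO and 72.4 ± 3.27 CPM in WT. The 2 genes that rose were HK2 and HKDC1. HK2 had 147 ± 3.96 CPM in KO and 110 ± 2.94 CPM in WT. HKDC1 had 8.16 ± 0.55 CPM in KO and 3.40 ± 0.41 CPM in WT.

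Genes for proteins that hold or export the Mondo factors had small fold changes, with a median log2 value of -0.22 (0.0026 with library size alone). Both medians are the value of SFN, a low gene that did not pass (0.890 ± 0.16 CPM in KO and 1.05 ± 0.080 CPM in WT). Of the 14-3-3 genes, SFN and the exporter XPO1, 7 were tested, 2 rose, 3 fell and 2 did not pass. Over all tested genes 40.0% were called higher and 36.3% lower. Scaled by library size, 3 of the 7 rose and 1 fell, beside 49.9% and 28.5% of all tested genes. YWHAH rose to 178 ± 10.3 CPM in KO, against 133 ± 1.78 CPM in WT. XPO1 rose to 294 ± 35.8 CPM in KO, against 244 ± 1.80 CPM in WT. YWHAE (532 ± 29.5 CPM in KO and 645 ± 18.2 CPM in WT) and YWHAG (423 ± 23.6 CPM in KO and 501 ± 3.70 CPM in WT) fell with TMM but were not called with library size alone. YWHAQ had 287 ± 24.1 CPM in KO and 362 ± 6.29 CPM in WT, and fell with TMM (log2 -0.34). With library size alone its log2 fold change was -0.12 (adjusted p = 0.0479, edgeR), and limma did not call it on log2(FPKM + 1) (adjusted p = 0.0569) or log2(FPKM + 0.1) (adjusted p = 0.0567).

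On the protein side of TXNIP, the thioredoxin system moved both ways, with 3 of 8 genes higher, 4 lower and 1 not passed. This stands beside 40.0% of all tested genes called higher and 36.3% called lower. The median log2 fold change of the 8 genes was -0.08. With library size alone it was 0.15, with 4 genes higher and 3 lower, beside 49.9% and 28.5% of all tested genes. TXN, which encodes thioredoxin, rose to 153 ± 17.8 CPM in KO, against 117 ± 3.26 CPM in WT. TXNRD1, the cytosolic thioredoxin reductase, rose to 1123 ± 18.1 CPM in KO, against 419 ± 5.25 CPM in WT, and PRDX1 rose to 406 ± 39.9 CPM in KO, against 268 ± 3.27 CPM in WT. TXNRD2, the mitochondrial reductase, fell to 59.0 ± 3.46 CPM in KO, against 96.6 ± 8.54 CPM in WT. PRDX2 fell to 14.6 ± 0.65 CPM in KO, against 21.3 ± 1.21 CPM in WT.

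Of 7 tested genes for other TXNIP partners and kinases, 1 rose, 5 fell and 1 did not pass, and 2 rose and 3 fell with library size alone. The shares over all tested genes were 40.0% higher and 36.3% lower, and 49.9% and 28.5% with library size alone. DDIT4 (REDD1), a stress-induced TXNIP partner, fell to 35.5 ± 1.47 CPM in KO, against 119 ± 4.27 CPM in WT. NLRP3, the inflammasome sensor reported to bind TXNIP, rose to 43.0 ± 2.09 CPM in KO, against 16.3 ± 1.26 CPM in WT. PRKAA2, a catalytic subunit of AMPK, which phosphorylates TXNIP, fell to 8.89 ± 1.41 CPM in KO, against 14.4 ± 0.81 CPM in WT.

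Of the NEDD4-family ligases, which alpha-arrestins recruit, 8 were tested, 3 rose, 3 fell and 2 did not pass, and 5 rose and 3 fell with library size alone. Beside them stand 40.0% of all tested genes called higher and 36.3% called lower, and 49.9% and 28.5% with library size alone. WWP2 rose to 61.3 ± 2.25 CPM in KO, against 26.8 ± 0.85 CPM in WT. SMURF2 fell to 43.9 ± 1.36 CPM in KO, against 121 ± 0.33 CPM in WT, and NEDD4L to 824 ± 12.7 CPM in KO, against 1318 ± 6.62 CPM in WT. WWP1 fell to 52.5 ± 2.34 CPM in KO, against 73.6 ± 3.31 CPM in WT. ITCH, the ligase best known for TXNIP, and the 14-3-3 gene YWHAB lie on chromosome 20, where 259 of 515 protein-coding genes had no count in any library, so their values were not read as expression.

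Other factors reported to act on TXNIP transcription gave 4 rises, 3 falls and 4 genes that did not pass among 11 tested. With library size alone they gave 7 rises and 2 falls. The shares called higher and lower over all tested genes were 40.0% and 36.3%, or 49.9% and 28.5% with library size alone. NFYA, a subunit of the CCAAT-binding factor, rose to 68.5 ± 2.86 CPM in KO, against 24.8 ± 1.97 CPM in WT. The subunit NFYC rose less, with a log2 fold change of 0.46 against 1.47 for NFYA. The subunit NFYB did not pass edgeR's test with TMM (log2 0.07, adjusted p = 0.426). With library size alone NFYB was called higher (log2 0.30). The rise of NFYA is therefore not read as a rise of the whole factor. NR3C1, the glucocorticoid receptor, fell to 234 ± 18.6 CPM in KO, against 527 ± 13.8 CPM in WT. VDR, the vitamin D receptor, rose to 9.36 ± 0.77 CPM in KO, against 1.65 ± 0.23 CPM in WT, and HDAC1, a histone deacetylase, rose to 95.9 ± 1.86 CPM in KO, against 73.6 ± 0.36 CPM in WT.

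Of the distantly related beta-arrestins, ARRB2 fell to 12.6 ± 0.72 CPM in KO, against 15.3 ± 0.70 CPM in WT, a call lost with library size alone (adjusted p = 0.632) and without WT library 2 (adjusted p = 0.0652, edgeR). ARRB1 had 5.83 ± 0.54 CPM in KO and 6.51 ± 0.47 CPM in WT and did not pass. The visual arrestins SAG and ARR3 had 0 and 3 counts in KO and 4 and 20 counts in WT, summed over 3 libraries each, and were not tested.

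**Figure D5:**
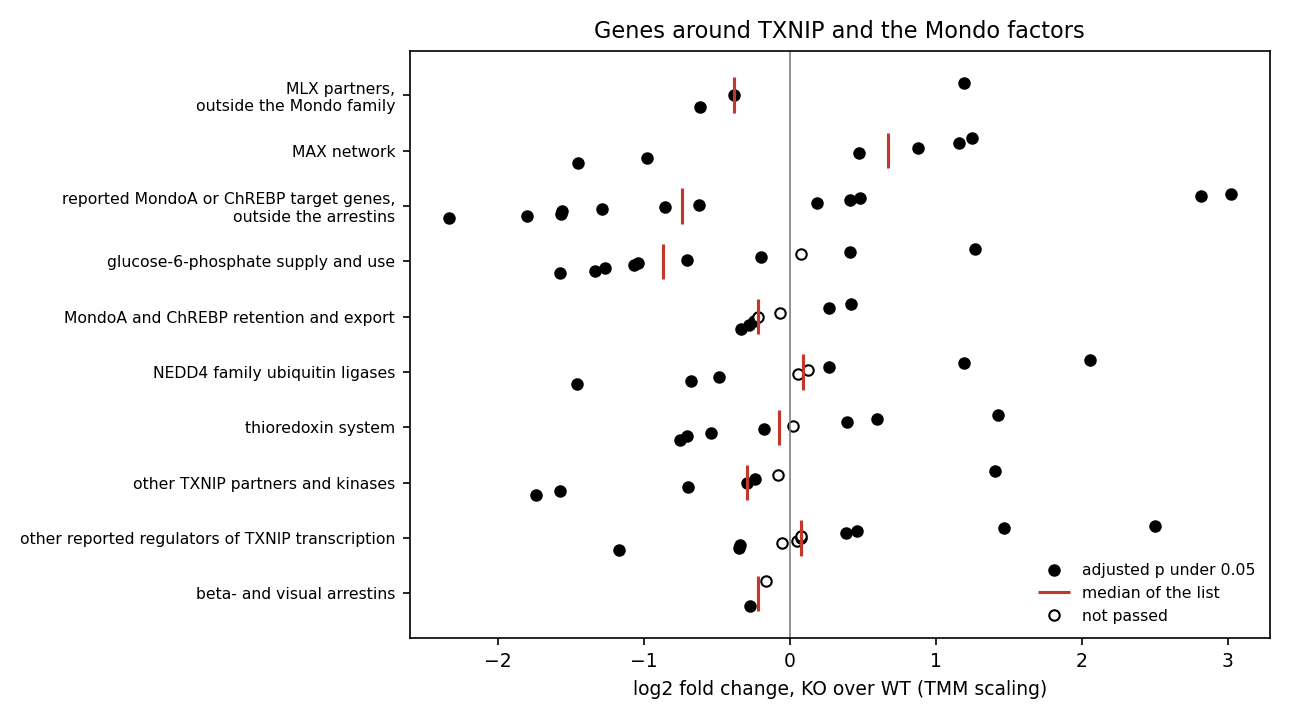
Log2 fold change, KO over WT with TMM scaling, of every tested gene in the lists around TXNIP and the Mondo factors. Filled points passed an adjusted p of 0.05, open points did not, and red lines are list medians, which run from -0.87 (glucose 6-phosphate supply and use) to 0.67 (MAX network).

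The genes whose profile over the 6 libraries was nearest to that of TXNIP were TM2D1, ERLEC1, FLT3LG, COPB1 and PPFIBP1. Likeness was the root-mean-square difference of log2(CPM + 1), with each gene centred on its WT mean, over 10012 genes with a mean of at least 5 CPM. It was 0.0257 for TM2D1 and 0.0335 for PPFIBP1, the first and last of the 5. The measure mainly follows the fold change between the groups, which the added 1 lowers for genes of few CPM, such as FLT3LG. Log2 fold changes were -1.12 for TM2D1, -1.03 for ERLEC1, -1.16 for FLT3LG, -1.04 for COPB1 and -1.06 for PPFIBP1. Shared control with TXNIP was not tested. ERLEC1, a lectin of the endoplasmic reticulum, had 94.7 ± 5.71 CPM in KO and 193 ± 1.90 CPM in WT, and COPB1, a coatomer subunit, had 212 ± 11.97 CPM in KO and 437 ± 6.57 CPM in WT. Of the 8 genes themselves, MLX was 271st by this measure with a difference of 0.101, and ARRDC3 was 467th with 0.131.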

How the data were processed

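Per the submitters' processing notes, reads were handled with fastp and HISAT on build hg38. Counting tool, annotation and strand setting: not given in the sources used here. The authors deposited whole-number read counts per gene and FPKM values, and the deposited FPKM equal the count divided by the library total and 1 fixed length per gene for 17521 of 17521 genes with a read (relative tolerance 1e-06), so they are no independent measurement. Counts were tested with edgeR 4.0.16 in R 4.3.3 (TMM, filterByExpr, robust quasi-likelihood test, group as the only term). The SE is the log2 fold change divided by the square root of F. One count is 0.0213 to 0.0331 unscaled CPM. No library was a copy of another in its group (lowest chi-square over degrees of freedom 3.73). The function was tested on simulated data. Alternatives were DESeq2 1.42.0, limma 3.58.1 (voom, or log2 FPKM), other scalings and filters, a replicate block and leaving out each library. The members and the 11 lists were chosen with earlier results of these data known. Named were all members, PGK1, up to 4 genes per list with the smallest p and the 5 nearest profiles. GPD1, HK2, HKDC1, PFKFB3, ACACA, NFYB, NFYC, TXN, SFN and XPO1 were named after their values were seen. Promoter windows come from RefSeq, with at least 1 for each of the 8 genes. Overlaps are of whole gene spans in GENCODE 29, introns included.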

Additional observations from a re-analysis of the deposited data

How the results depend on the processing

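The 6 called genes (TXNIP, ARRDC2, ARRDC3, ARRDC4, MLXIP and MLX) kept their direction and their call under every alternative run. The log2 fold change of TXNIP ranged from -1.07 to -0.81, and that of ARRDC4 from 0.77 with log2(FPKM + 1) to 1.90 with library size alone. The ARRDC1 fold change turned to 0.17 with library size alone, 0.16 with log2(FPKM + 1) and 0.17 with log2(FPKM + 0.1), which raised the count of members called to 7 in the first and last of these. ARRB1 turned to 0.061, 0.027 and 0.054 in the same 3 settings. MLXIPL was removed by a minimum of 1 CPM in 3 libraries and by leaving out KO library 1 or WT library 1. With each library left out in turn, 9687 to 10676 genes and 6 members were called. The ratio of ARRDC4 to TXNIP differed by 2.56 to 2.84 and the TXNIP share by -15.3 to -14.9 points. The cause of these shifts was not tested. Same-numbered libraries did not deviate together (r from -0.0106 to 0.0057, against -0.0250 to 0.0204 for differently numbered ones). The labels do not say whether the numbers pair samples, and these few values cannot decide it. With the replicate block 9986 genes and 6 members were called. Depth limits ARRDC4, MLXIPL and ARRDC5.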

Other observations

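The repeat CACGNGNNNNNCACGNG of the TXNIP promoter was found before the start of 16 genes, of which 13 were tested. Of these, 2 rose in KO, 6 fell (TXNIP among them) and 5 did not pass the test (edgeR), beside 40.0% of all tested genes called higher and 36.3% called lower. The genes were picked by the motif after the TXNIP values were known, and are given as a description. RCN3, a calcium-binding protein of the endoplasmic reticulum, fell to 4.35 ± 0.54 CPM in KO, against 89.7 ± 5.28 CPM in WT (SD, n = 3 each). P4HA1, a collagen prolyl hydroxylase subunit, fell to 31.2 ± 1.89 CPM in KO, against 338 ± 10.8 CPM in WT. STX12, a syntaxin, fell to 33.0 ± 1.28 CPM in KO, against 64.7 ± 0.71 CPM in WT, and TIGD1 fell to 4.74 ± 1.28 CPM in KO, against 9.08 ± 0.52 CPM in WT. GFPT1, the entry enzyme of the hexosamine pathway, fell to 168 ± 11.2 CPM in KO, against 223 ± 1.92 CPM in WT. RAN, the nuclear transport GTPase, rose to 495 ± 25.1 CPM in KO, against 311 ± 9.71 CPM in WT, and KCTD5 rose to 120 ± 5.98 CPM in KO, against 68.0 ± 1.25 CPM in WT.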
